A study of Homo sapiens with 6 samples.

Results

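The genes described here are those that encode the translation initiation and elongation factors of human cells, in HEY ovarian cancer cells with and without knockdown of PQBP1. They were chosen by name, as rows of the deposited gene table whose symbol starts with EIF and a digit from 1 to 6 or with EEF1 or EEF2. Names starting with EIF2AK (5 rows, those of the eIF2α kinases and EIF2AK3-DT), names with a hyphen (3 rows) and names ending in P and digits (73 pseudogene names and the 3 4E-BP genes) were left out. This left 61 of the 32679 genes of the table, of which 59 had a mean of at least 1 FPKM (fragments per kilobase of transcript, relative to all mapped fragments) over the 6 samples and were tested. The name rule also takes in 9 genes for associated proteins and modifying enzymes, such as the kinase EEF2K and the lysine methyltransferases of eEF1A.

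Both groups were HEY cells, an established human ovarian cancer line, collected on day 3. The 3 shPQBP1 samples carried a short hairpin against PQBP1, which encodes a polyglutamine-binding protein of the spliceosome, and received 1 µg per ml doxycycline to induce it. The 3 shNC samples carried a control hairpin. Their treatment label reads none, and whether they were given doxycycline is not stated otherwise, so, as labelled, hairpin and doxycycline cannot be told apart. The 3 samples of a group are given as biological replicates, all from 1 cell line.

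Initiation begins when eIF2 bound to GTP brings the initiator tRNA to the small ribosomal subunit, together with eIF1, eIF1A, eIF5 and the many-subunit scaffold eIF3. The mRNA is recruited through its cap by eIF4E, eIF4G and the helicase eIF4A, the complex scans to the start codon, and eIF5B joins the large subunit. eEF1A then delivers each aminoacyl-tRNA, eEF1B recharges eEF1A with GTP, eEF2 moves the ribosome along, and eIF5A helps at stalling peptides. Many of these mRNAs belong to the 5' TOP class, whose translation is controlled through mTOR.

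PQBP1 itself was at 7.18, 6.67 and 6.93 FPKM in the 3 shNC samples and at 1.68, 1.72 and 1.44 FPKM in the 3 shPQBP1 samples. The groups did not overlap, and the log2 fold change was -2.04 (SE 0.10, limma, adjusted p = 0.00154, with a range of 0.00103 to 0.0686 over the other settings tried). Of the markers used to check the cell label, KRT7, KRT8 and KRT18 (52.8 to 94.6 FPKM) were present, EPCAM was at 0.79 to 1.13 FPKM, and CDH1 and MUC16 were at most 0.06 FPKM. The serous marker PAX8 was at 12.3 to 15.7 FPKM in shNC and 18.4 to 24.1 FPKM in shPQBP1, whereas WT1 was at 0.63 to 0.71 and 0.31 to 0.45 FPKM. VIM, a mesenchymal marker, stood at 1112 to 1343 FPKM. The leukocyte marker PTPRC was listed at 0 in all 6 samples, and the hepatocyte marker ALB was at most 0.03 FPKM. Of the endothelial markers, CDH5 was at 2.11 to 2.96 FPKM in shNC and 3.10 to 3.64 FPKM in shPQBP1, and PECAM1 at 0.23 to 0.25 and 0.02 to 0.06 FPKM. The part of these marker differences in the results below was not tested. The depth of the samples is unknown. One sample stood apart from the rest: the first shNC replicate had a Pearson correlation of 0.926 to 0.955 with the other 5, and its deviations from the mean followed the GC content of the transcript (Spearman's rho 0.631 over the genes tested). Where a log2 fold change, ratio or group median below moved by more than 1.5 times without this replicate, the value without it is given as well.

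No translation factor gene reached a Benjamini-Hochberg adjusted p under 0.05 in limma, where 2.91% of the 11413 genes tested did, and none combined an unadjusted p under 0.05 with a change of more than 2-fold (1.52% of all genes tested did). At an unadjusted p under 0.05 there were 15 of 59, against 23.6% of all genes tested. Of these, 12 were lower with shPQBP1 (20.3%, against 11.7% of all genes tested) and 3 were higher (5.08%, against 11.9%). The 12 were EEF1G, EIF1, EIF2B5, EEF1D, EIF4A3, EIF3I, EIF2S3, EIF2S3B, EEF2, EIF4H, EIF3B and EIF3L, and the 3 were EIF4G2, EEF2KMT and EEF1E1. With median-of-ratios scaling the counts were 14 lower and 1 higher, and with quantile normalization 13 lower and 0 higher. Over all genes tested, 2697 and 2766 of 11413 had an unadjusted p under 0.05 there, against 2689 as reported. Without the first shPQBP1 replicate 6 were lower and 0 higher, and without the third 7 were lower and 1 higher. Over all genes tested, 1780 and 1802 had such a p there, so calls were fewer across all genes too. Without the third shNC replicate 1 was higher, and over all genes tested 2240 had such a p.

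The differences were small. Over the 59 genes the log2 fold change ran from -0.42 (EEF1G) to 0.56 (EIF5B), with a median of -0.11 beside 0.02 over all genes tested (-0.06 and 0.01 without the first shNC replicate). It was below 0 in 37 genes (62.7%, against 47.2% of all genes tested). The values of the 2 groups did not overlap in 23 genes, 19 of them lower with shPQBP1 (32.2%, against 17.1%) and 4 higher (6.78%, against 17.3%). The 4 were EEF2K, EEF2KMT, EIF4G2 and EIF5A2. The summed FPKM of all genes in the table was 318484, 294970 and 304196 in shNC and 282734, 287423 and 278286 in shPQBP1. These sums did not overlap, no scaling to them was tried, and their part in the small differences was not tested. Since the RNA is from whole cultures, fewer cells with a transcript and less of it per cell cannot be told apart.

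**Figure D1:**
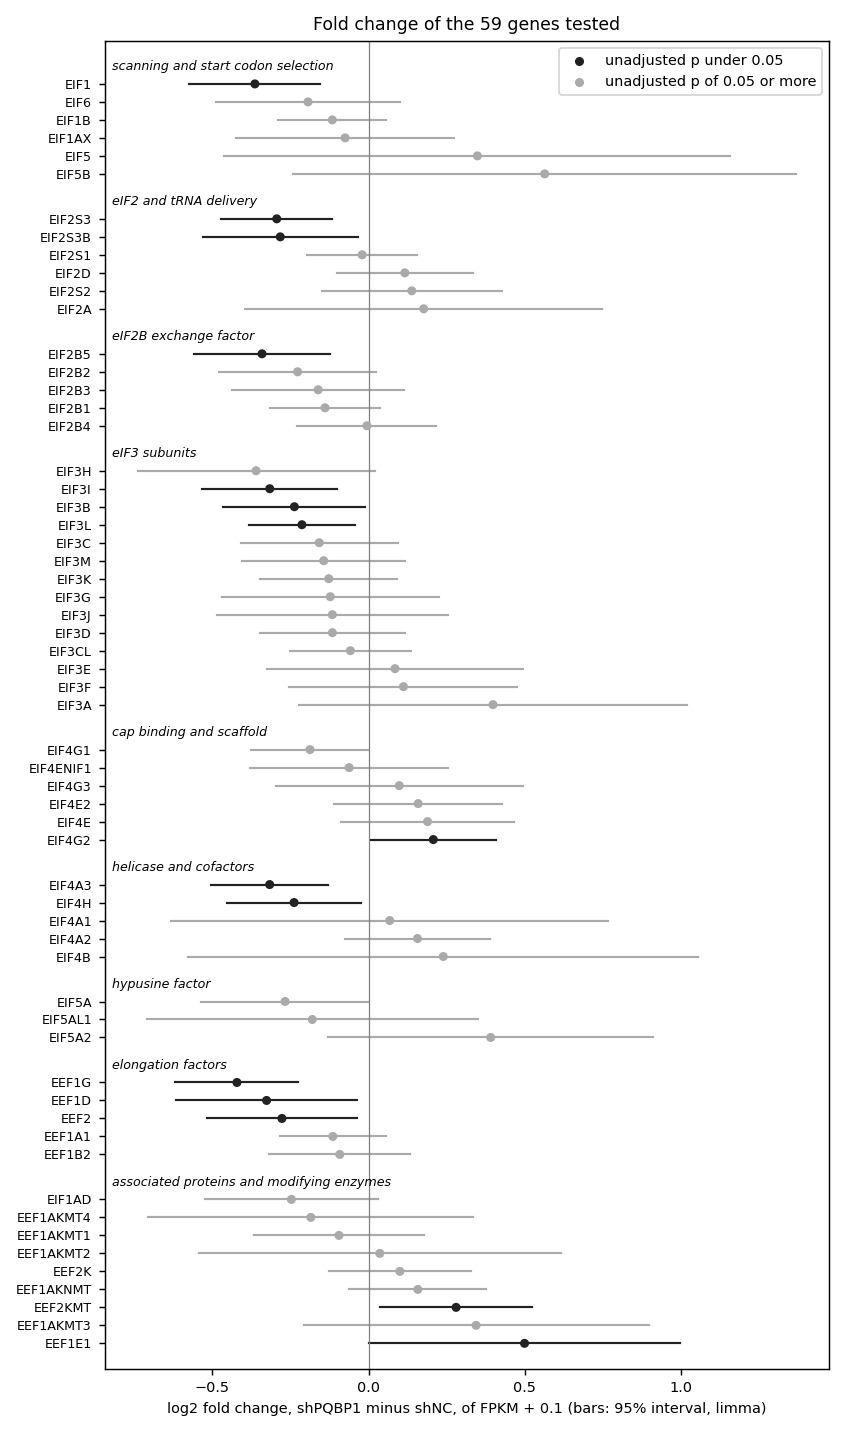
Log2 fold change (shPQBP1 minus shNC, log2(FPKM + 0.1)) of the 59 genes tested, grouped by role, with bars for the 95% interval from limma. Dark points have an unadjusted p under 0.05, and the 12 dark points left of 0 outnumber the 3 to the right.

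The levels of these genes spanned a wide range. EEF1A1 was the highest at a mean of 2135 FPKM over the 6 samples and alone made up 40.0% to 41.4% of the summed FPKM of the 61 genes. EEF1G (521 FPKM), EEF2 (211 FPKM) and EEF1B2 (187 FPKM) followed, so the elongation factors held the first 4 places, with the samples of EEF2 and EEF1B2 overlapping. The next were EIF5A (137 FPKM), EIF2S2 (135 FPKM) and EIF3CL (133 FPKM), which differed from each other by less than the spread between samples. In all, the 61 genes took 1.74% to 1.83% of the FPKM of a sample, with the groups overlapping. At the other end, EEF1A2, the eEF1A form of muscle and nerve, was at 0.02, 0.03 and 0 FPKM in shNC and at 0.05, 0.04 and 0.08 FPKM in shPQBP1, and EIF4E3, a cap-binding relative of eIF4E, was at 0.49 to 0.60 FPKM. These are the genes that were under the filter.

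**Figure D2:**
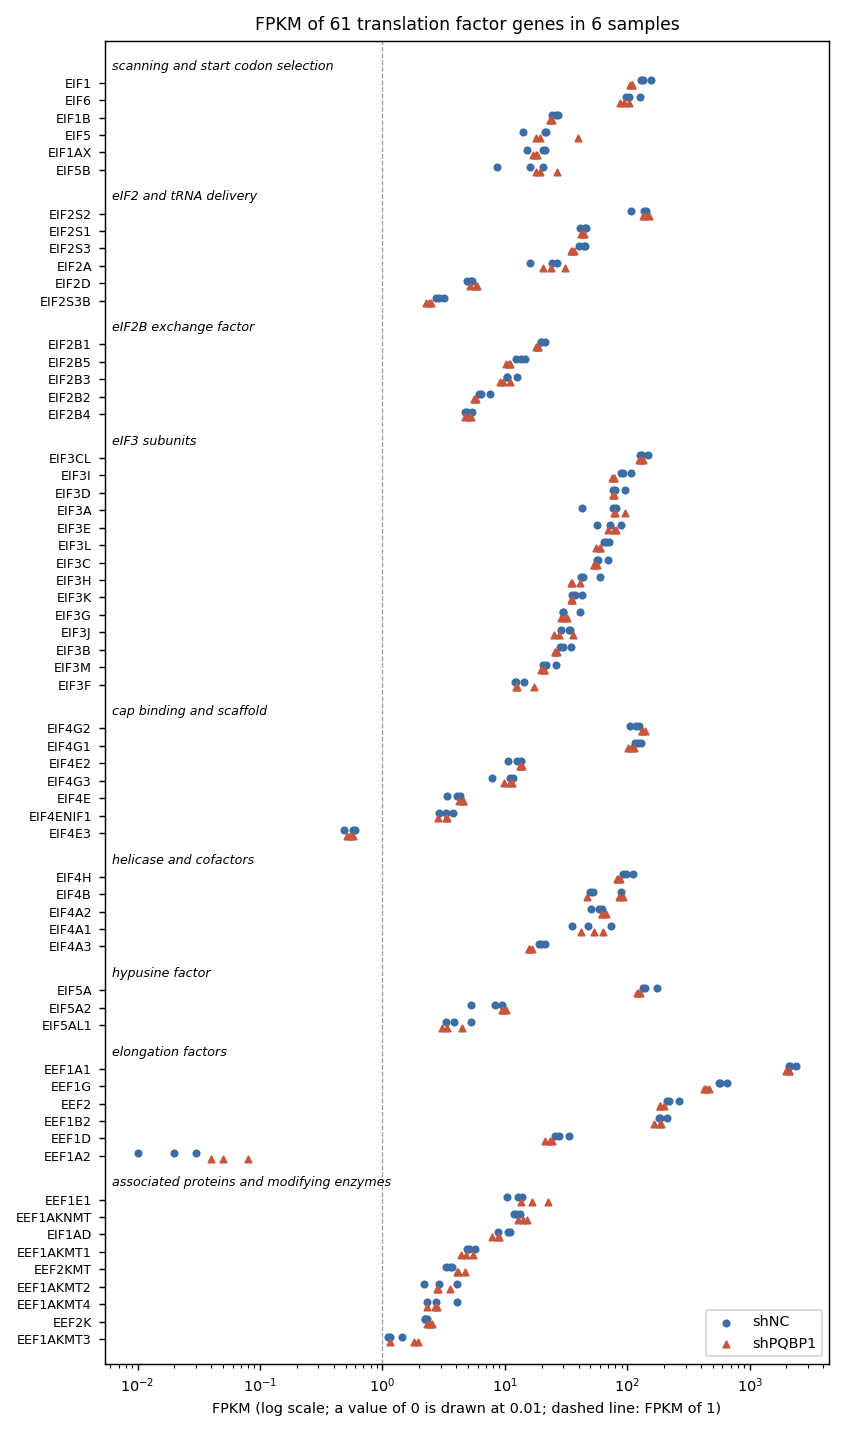
FPKM of the 61 genes in each of the 6 samples on a log axis, grouped by role and ordered by mean level within it (circles shNC, triangles shPQBP1, the dashed line at 1 FPKM). EEF1A1 (mean 2135 FPKM) lies far to the right, EEF1A2 is the only gene under 0.1 FPKM, and for most genes circles and triangles lie close together.

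The elongation factors had a median log2 fold change of -0.28, and all 5 that were tested had a value below 0 (47.2% of all genes tested did). The median was the lowest of the role groups in the values as deposited. It was -0.18 without the first shNC replicate and -0.09 after correction for GC content and length. With that correction the groups of eIF2 and tRNA delivery (-0.16), eIF2B (-0.13), the hypusine factor (-0.11), scanning and start codon selection (-0.11) and eIF3 (-0.10) had lower medians. The first of these groups also holds EIF2A, EIF2D and EIF2S3B. The elongation factors also had the highest median GC content, 54.5%, beside 47.0% for the 59 genes. EEF1G, the γ subunit of the eEF1B exchange complex, was at 657, 562 and 571 FPKM in shNC and at 441, 467 and 426 FPKM in shPQBP1. Every shPQBP1 sample was thus lower than every shNC sample, and the gene had the lowest log2 fold change of the 59 (-0.42, SE 0.08, 95% interval -0.62 to -0.22). Its adjusted p was 0.0537 in limma, and over the other settings it ran from 0.0165 to 0.235. EEF1D, which encodes the δ subunit with exchange activity, was at 33.6, 25.9 and 27.5 FPKM in shNC and at 23.5, 24.3 and 21.2 FPKM in shPQBP1 (log2 fold change -0.33, adjusted p = 0.175, and -0.22 without the first shNC replicate). EEF2, the translocase, was at 264, 213 and 219 FPKM against 186, 200.2 and 186 FPKM (-0.28, adjusted p = 0.167, and -0.18 without the first shNC replicate). In both genes the groups did not overlap, and the first shNC replicate was the highest sample. The third subunit of the exchange complex, EEF1B2, had overlapping groups and a log2 fold change of -0.09, or -0.02 without that replicate.

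EEF1A1, the tRNA carrier of elongation, was at 2412, 2137 and 2114 FPKM in shNC and at 2097, 2087 and 1964 FPKM in shPQBP1. The groups lay apart by a narrow margin, and the log2 fold change was -0.11 (SE 0.07, adjusted p = 0.346), which became 0.06 under quantile normalization and -0.05 without the first shNC replicate. Part of this level is uncertain, since 22 pseudogene-named copies of EEF1A1 in the table summed to a mean of 1110 FPKM and reads may be shared between them and the gene. The same holds for EIF4A1, whose copies summed to a mean of 17.3 FPKM beside 52.7 FPKM for the gene. Copies of EEF1B2, EIF2S2, EIF4B, EIF5A and EIF3F were also in the table, and those of EIF3F summed to more than the gene.

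The 5' TOP class is defined by a C at the cap followed by a run of pyrimidines. In the set of RefSeq transcript starts used here (GRCh38.p14), 48 of the 61 genes had at least 1 start. Whether RefSeq lists a start for the other genes was not checked. Of the 48, 13 (27.1%) held a C followed by at least 4 C or T at a listed start, read on the strand of the gene. The same tract was present in 5.14% of all 27305 genes in the list. Of the 9 genes here that are textbook 5' TOP mRNAs, 6 had a listed start and 5 held the tract. These 5 are shown first, followed by EEF1G, EIF1 and EIF2B5, which were lower at an unadjusted p under 0.05 but hold no tract at the listed start. For EEF1B2 the start with the tract is shown, and its other listed start holds none. Each line covers 5 bases before the start and 20 from it, with the tract in capitals.
EEF1A1, chr6:73521013-73521037, minus strand: acgttCTTTTTCgcaacgggtttgc
EEF2, chr19:3985444-3985468, minus strand: gcgttCTCTTCCgccgtcgtcgccg
EEF1B2, chr2:206159890-206159914, plus strand: cgggtCCTTTTTCCTCTCTTCagcg
EIF3F, chr11:7987332-7987356, plus strand: gcctcCTTCTTTCTCgacaagatgg
EIF4B, chr12:53006451-53006475, plus strand: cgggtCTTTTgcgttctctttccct
EEF1G, chr11:62573872-62573896, minus strand: ggcttactttgcggcagcgccgaga
EIF1, chr17:41688880-41688904, plus strand: cctctgccccagtcactgagccgcc
EIF2B5, chr3:184135353-184135377, plus strand: tccttgcggaagtggtgaccgtgag

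The 13 genes with the tract had a median log2 fold change of -0.11 (-0.05 without the first shNC replicate). At an unadjusted p under 0.05, 3 were lower and 0 higher. The 3 were EEF2, EIF2S3 and its copy EIF2S3B, and the last 2 may share reads. The 34 tested genes with a listed start and no tract had a median of -0.13 (-0.08 without the first shNC replicate), with 7 lower and 2 higher. Over all genes tested, 11.7% were lower and 11.9% higher at this p. The 9 textbook 5' TOP mRNAs (EEF1A1, EEF1B2, EEF1D, EEF1G, EEF2, EIF3E, EIF3F, EIF3H and EIF4B) had a median of -0.11. EEF1A1 was the middle gene of these 9, of the 13 with the tract and of the 59, so these medians were a single value. Without the first shNC replicate the medians of the 9 and the 59 were -0.08 and -0.06. With the GC content and length correction they were -0.11 and -0.07. EIF4B, a cofactor of the helicase, had the largest spread within groups of all 61 genes. It was at 52.2, 89.7 and 49.4 FPKM in shNC and at 47.2, 93.1 and 86.5 FPKM in shPQBP1, so both groups held samples near 50 and samples near 90 FPKM (log2 fold change 0.24, SE 0.34, and 0.12 without the first shNC replicate).

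Among the 6 genes grouped under scanning and start codon selection, which include EIF5B and EIF6, EIF1 had the lowest log2 fold change. EIF1 keeps start codon selection stringent. Its level was 156, 129 and 135 FPKM in shNC and 106, 110.0 and 109.9 FPKM in shPQBP1. The groups did not overlap, and the log2 fold change was -0.36 (SE 0.09, limma adjusted p = 0.0819, with 0.0213 to 0.273 over the other settings). Its close relative EIF1B was at 26.1, 24.5 and 27.0 FPKM against 23.5, 23.6 and 24.4 FPKM, with a log2 fold change of -0.12. The log2 ratio of EIF1 to EIF1B was 2.43 ± 0.13 (SD, n = 3) in shNC and 2.18 ± 0.03 in shPQBP1. The difference of -0.25 had an exact permutation p of 0.1, the smallest that 3 against 3 samples can give.

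EIF5B, the GTPase of subunit joining, had the highest log2 fold change of the 59 genes and also one of the widest intervals. It was at 8.68, 20.7 and 15.98 FPKM in shNC and at 26.6, 17.9 and 19.5 FPKM in shPQBP1, a log2 fold change of 0.56 (95% interval -0.24 to 1.37, adjusted p = 0.333). The groups overlapped, and the lowest value came from the first shNC replicate, without which the log2 fold change was 0.21. EIF5, which activates the GTPase of eIF2, was at 14.2, 21.9 and 21.4 FPKM against 39.3, 18.1 and 19.3 FPKM. The log2 fold change of 0.35 was -0.01 without the first shPQBP1 sample, the highest of the 6, and 0.15 without the first shNC replicate.

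The 3 subunits of eIF2 had different values. EIF2S3, the γ subunit that binds GTP and the tRNA, was at 40.7, 44.7 and 45.2 FPKM in shNC and at 34.5, 36.6 and 35.3 FPKM in shPQBP1. Its groups did not overlap, and its log2 fold change was -0.29 (SE 0.07, limma adjusted p = 0.0917). EIF2S1, the α subunit that is phosphorylated in the stress response, was at 41.2, 45.3 and 45.7 FPKM against 44.5, 42.3 and 43.4 FPKM (log2 fold change -0.02, 95% interval -0.20 to 0.16, and -0.07 without the first shNC replicate). EIF2S2, the β subunit, was at 108, 137 and 142 FPKM against 150.0, 139 and 134 FPKM (0.14, 95% interval -0.15 to 0.43, and 0.02 without the first shNC replicate). With the correction for GC content and length the log2 fold changes were -0.45 for EIF2S3, -0.26 for EIF2S1 (limma adjusted p = 0.138) and 0.13 for EIF2S2, so EIF2S1 then lay nearer to EIF2S3. The difference between the subunits was not tested.

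EIF2S3B is a copy of EIF2S3 on chromosome 12, with values of 2.29 to 3.18 FPKM and a log2 fold change of -0.28. Around the starts shown the copy and EIF2S3 share 24 of 25 bases, and both hold the tract described above, which is why they are shown side by side. The copy has another listed start, a few bases downstream, that does not hold the tract. Reads of the more abundant gene may be counted for the copy.
EIF2S3, chrX:24054951-24054975, plus strand: ccttcCTCTTTTggcaacatggcgg
EIF2S3B, chr12:10505885-10505909, plus strand: tcttcCTCTTTTggcaacatggcgg

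eIF2B recharges eIF2 with GTP, and all 5 of its subunit genes had a log2 fold change below 0 (47.2% of all genes tested did), with a median of -0.16, or -0.10 without the first shNC replicate. EIF2B5, the catalytic ε subunit, was at 14.7, 13.5 and 12.4 FPKM in shNC and at 10.2, 10.8 and 10.99 FPKM in shPQBP1. The groups did not overlap (log2 fold change -0.34, SE 0.09, limma adjusted p = 0.102). EIF2B1, the α subunit and the highest of the 5, was at 21.4, 19.7 and 19.7 FPKM against 17.8, 18.6 and 18.6 FPKM (-0.14, adjusted p = 0.289). EIF2B2 also had groups that lay apart, whereas those of EIF2B3 and EIF2B4 overlapped. The log2 fold change of EIF2B4 was the closest to 0 of the 5. It turned positive without the first shNC replicate and with the GC content and length correction, whereas the others stayed negative in both.

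Of the 14 eIF3 genes, 11 had a log2 fold change below 0 (47.2% of all genes tested did). At an unadjusted p under 0.05 there were 3 lower, EIF3I, EIF3B and EIF3L, and 0 higher (11.7% and 11.9% of all genes tested). The median was -0.12, and -0.07 without the first shNC replicate. EIF3H, a subunit of the MPN family, had the lowest log2 fold change, -0.36, with 1 shNC sample well above the other values. It stood at 43.4, 59.9 and 41.8 FPKM in shNC and at 41.2, 35.1 and 35.5 FPKM in shPQBP1, so the lowest shNC sample and the highest shPQBP1 sample differed little (adjusted p = 0.227). EIF3I, the WD-repeat subunit, was at 108, 89.1 and 91.8 FPKM against 75.0, 77.6 and 78.3 FPKM, and here the groups lay well apart (-0.32, SE 0.09, adjusted p = 0.115). EIF3A, the largest subunit, had the opposite sign: it was at 42.4, 80.4 and 76.1 FPKM against 96.2, 77.4 and 79.8 FPKM. Its log2 fold change of 0.40 (adjusted p = 0.364) was 0.10 without the first shNC replicate.

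EIF3CL, a near-identical copy of EIF3C, was the highest of the group at 148, 126 and 133 FPKM in shNC and 130.1, 135 and 126 FPKM in shPQBP1 (log2 fold change -0.06, and 0.01 without the first shNC replicate). The division of reads between EIF3C and EIF3CL is uncertain.

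**Figure D3:**
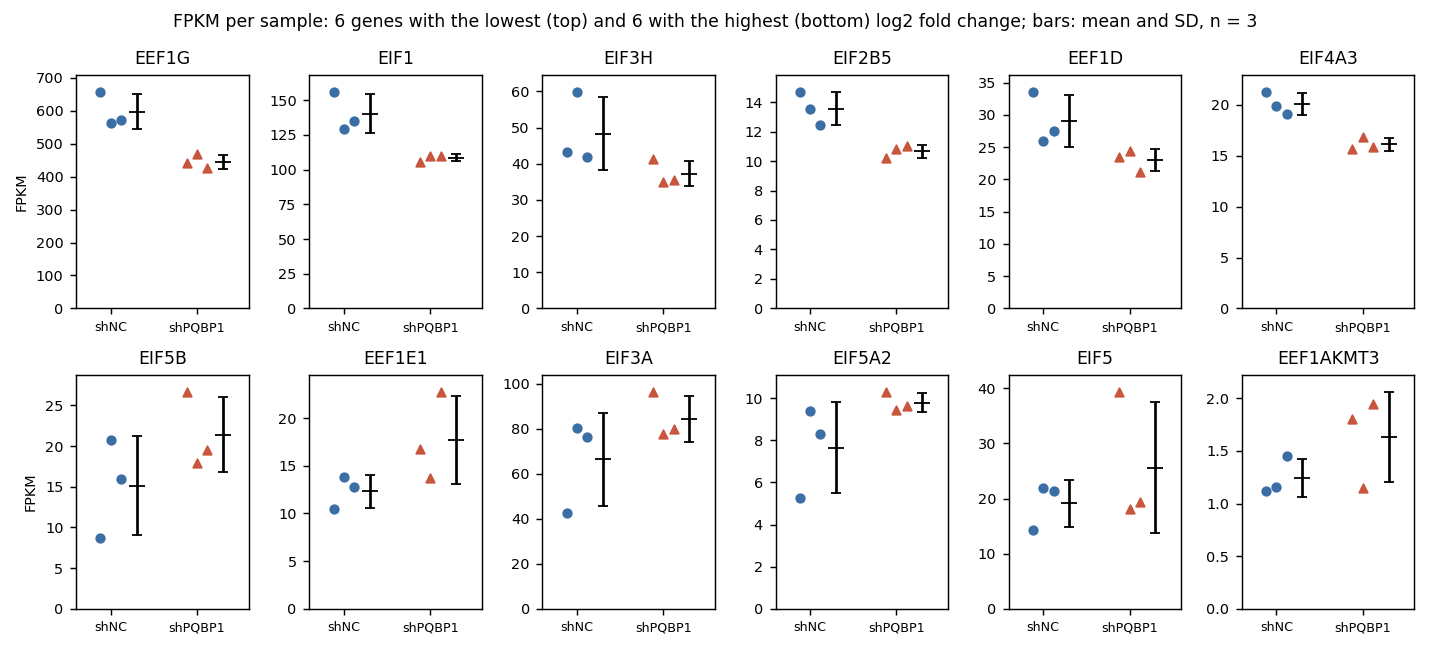
FPKM per sample of the 6 genes with the lowest log2 fold change (top row) and the 6 with the highest (bottom row), with the mean and SD of each group of 3 on axes that start at 0. In the top row all shPQBP1 triangles lie under the shNC circles of the same gene, whereas in the bottom row only EIF5A2 has groups that do not overlap.

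In the cap-binding group 4 of 6 tested genes had a log2 fold change above 0, as did 6026 of the 11413 genes tested. The group median was 0.13, which was 0.06 without the first shNC replicate and 0.03 with the GC content and length correction. EIF4E, which binds the cap, was at 3.38, 4.31 and 4.04 FPKM in shNC and at 4.57, 4.23 and 4.55 FPKM in shPQBP1 (0.19, adjusted p = 0.343, but 0.09 without the first shNC replicate and -0.07 with the correction). The 3 pseudogene-named copies of EIF4E summed to a mean of 19.3 FPKM, more than the 4.18 FPKM of the gene, so its level is uncertain. EIF4E2, a cap-binding protein linked to repression, was at 13.6, 12.5 and 10.5 FPKM against 13.9, 13.3 and 13.5 FPKM (0.16, and 0.24 without the first shNC replicate). The log2 ratio of EIF4E to EIF4E2 differed by 0.03 between the groups (exact permutation p = 1), by -0.15 without the first shNC replicate and by -0.29 with the correction.

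The scaffold genes had different signs. EIF4G1, the main scaffold of cap-dependent initiation, was at 129.9, 115 and 122 FPKM in shNC and at 102, 113 and 107 FPKM in shPQBP1 (log2 fold change -0.19, SE 0.08, adjusted p = 0.213). EIF4G2, a relative that lacks the eIF4E-binding region, was at 105, 119 and 125 FPKM against 139, 132 and 132 FPKM (0.21, SE 0.08, adjusted p = 0.202, and 0.14 without the first shNC replicate). For both genes the groups did not overlap, so the pair lay on opposite sides of 0, though neither passed the adjusted test. EIF4G3 was at 7.88, 11.8 and 10.95 FPKM against 11.4, 9.91 and 11.1 FPKM (0.10, and -0.08 without the first shNC replicate). The log2 ratio of EIF4G1 to EIF4G3 differed by -0.29 (exact permutation p = 0.4), by -0.07 without that replicate and by -0.15 with the correction.

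The helicase group was mixed. EIF4A3, the DEAD-box protein that anchors the exon junction complex rather than serving in initiation, was at 21.3, 19.9 and 19.1 FPKM in shNC and at 15.6, 16.8 and 15.9 FPKM in shPQBP1. Its groups did not overlap (log2 fold change -0.32, SE 0.08, limma adjusted p = 0.0874, with 0.0477 to 0.294 over the other settings). EIF4H, a helicase cofactor, was at 112, 91.9 and 98.6 FPKM against 84.8, 87.4 and 83.1 FPKM (-0.24, adjusted p = 0.177). The initiation helicases themselves had overlapping groups. EIF4A1 was at 73.5, 48.2 and 35.2 FPKM against 53.3, 63.9 and 42.2 FPKM (0.07, SE 0.29, and 0.35 without the first shNC replicate). EIF4A2 was at 50.5, 62.1 and 58.99 FPKM against 66.5, 62.0 and 62.2 FPKM (0.16, SE 0.10, and 0.07 without it). Their log2 ratio differed by -0.09 (exact permutation p = 0.9), and the direction turned without the first shNC replicate (0.28), without the third shPQBP1 replicate (0.05) and with the correction (0.12).

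The paralogues of the hypusine-bearing factor eIF5A had opposite signs, with sizes that depended on the first shNC replicate. EIF5A was at 175, 135 and 139.8 FPKM in shNC and at 128, 123 and 120.4 FPKM in shPQBP1 (log2 fold change -0.27, adjusted p = 0.214, and -0.15 without that replicate). EIF5A2 was at 5.26, 9.40 and 8.32 FPKM against 10.3, 9.44 and 9.64 FPKM (0.39, adjusted p = 0.305, and 0.14 without it). In each the groups lay apart, for EIF5A2 only just, with nearest values of 9.40 and 9.44 FPKM. The log2 ratio of EIF5A to EIF5A2 was 4.30 ± 0.64 (SD, n = 3) in shNC and 3.65 ± 0.04 in shPQBP1 (difference -0.66, exact permutation p = 0.1). The first shNC replicate had a ratio of 5.03, the second 3.83 and the third 4.05, and without the first the difference was -0.29. With the GC content and length correction it was -0.19.

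Among the 9 associated proteins and modifying enzymes, 6 had a log2 fold change above 0, as did 6026 of the 11413 genes tested. Of these 6, 2 had an unadjusted p under 0.05 (11.9% of all genes tested were higher at this p). EEF1E1, a component of the multi-tRNA synthetase complex that is named for its likeness to elongation factors, was at 10.4, 13.8 and 12.7 FPKM in shNC and at 16.7, 13.7 and 22.7 FPKM in shPQBP1. The groups overlapped (log2 fold change 0.50, SE 0.21, adjusted p = 0.211). Its unadjusted p in limma was 0.0495, only just under 0.05, and 0.139 without the first shNC replicate. With the GC content and length correction it was 0.173, with a log2 fold change of 0.25. EEF2KMT, which methylates eEF2, was at 3.32, 3.69 and 3.58 FPKM against 4.15, 4.75 and 4.04 FPKM, with groups that lay apart (0.28, SE 0.10, adjusted p = 0.170). EEF1AKMT3, a methyltransferase of eEF1A, was near the filter at 1.12, 1.16 and 1.45 FPKM against 1.80, 1.15 and 1.95 FPKM (0.34, adjusted p = 0.376). EEF2K, the kinase that inhibits eEF2, had the smallest spread within groups of the 61 genes and a log2 fold change of 0.10.

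Of 36 other genes of the pathway that were listed (kinases of eIF2α, 4E-BPs, poly(A)-binding proteins, mTOR and S6 kinase components and release factors among them), 34 were in the table under the listed symbol and 33 were tested. None had an adjusted p under 0.05 in limma, and at an unadjusted p under 0.05 there were 4 higher and 6 lower (11.9% and 11.7% of all genes tested). The median log2 fold change was 0.04, and its sign turned without the first shNC replicate (-0.04) and with the GC content and length correction (-0.06). EIF4EBP1, the main repressor of eIF4E, had a mean of 50.8 FPKM in shNC and 42.0 FPKM in shPQBP1 (log2 fold change -0.27, adjusted p = 0.250, and -0.17 without the first shNC replicate). EIF4EBP2 had a log2 fold change of -0.11 (-0.06 without it), and EIF4EBP3 was under the filter.

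The first shNC replicate was the highest of the 6 samples in 29 of the 59 tested genes and the lowest in 20, so it was at an extreme in 83.1% of them, against 64.1% of all genes tested. Its deviation from the mean of the 6 samples had a Spearman's rho of 0.70 with the GC content of the transcript over the 59 genes, which all come from the same library. Across the same 59 genes the log2 fold change had a rho of -0.42 with GC content, and -0.08 when that replicate was left out. Over all genes tested the values were -0.46 and -0.24.

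**Figure D4:**
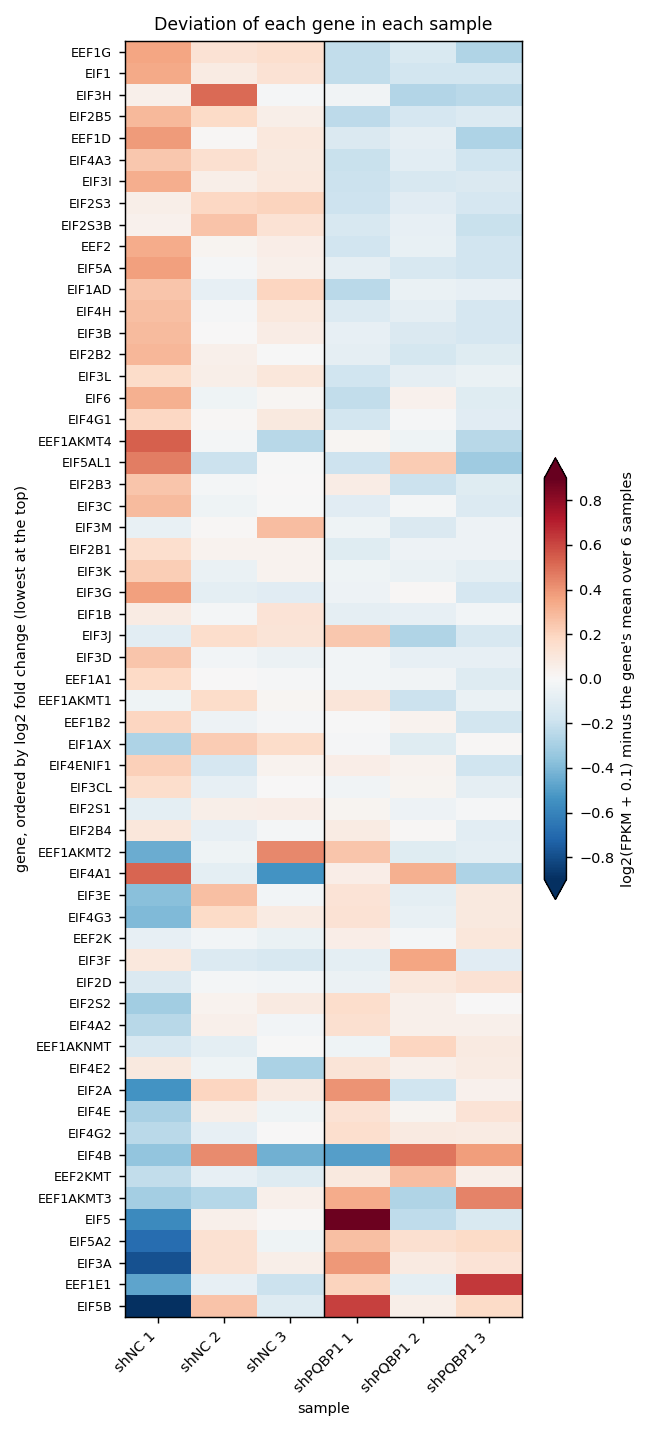
Deviation of log2(FPKM + 0.1) of each tested gene from its mean over the 6 samples, with samples as columns, genes ordered by log2 fold change, red above and blue below the mean. The first shNC column is the most strongly coloured, red in most of the upper rows and blue in most of the lower ones.

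With the genes split at their median GC content of 47.0%, the 30 at or under it had a median log2 fold change of 0.01, with 3 lower and 2 higher at an unadjusted p under 0.05. The 29 over it had a median of -0.16, with 9 lower and 1 higher. Over all genes tested, 11.7% were lower and 11.9% higher at this p. Without the first shNC replicate the medians of the 2 sets of genes were -0.061 and -0.056, so they differed little. With each sample corrected for its trend on GC content and length, the medians were -0.12 and -0.03, so their order was turned.

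**Figure D5:**
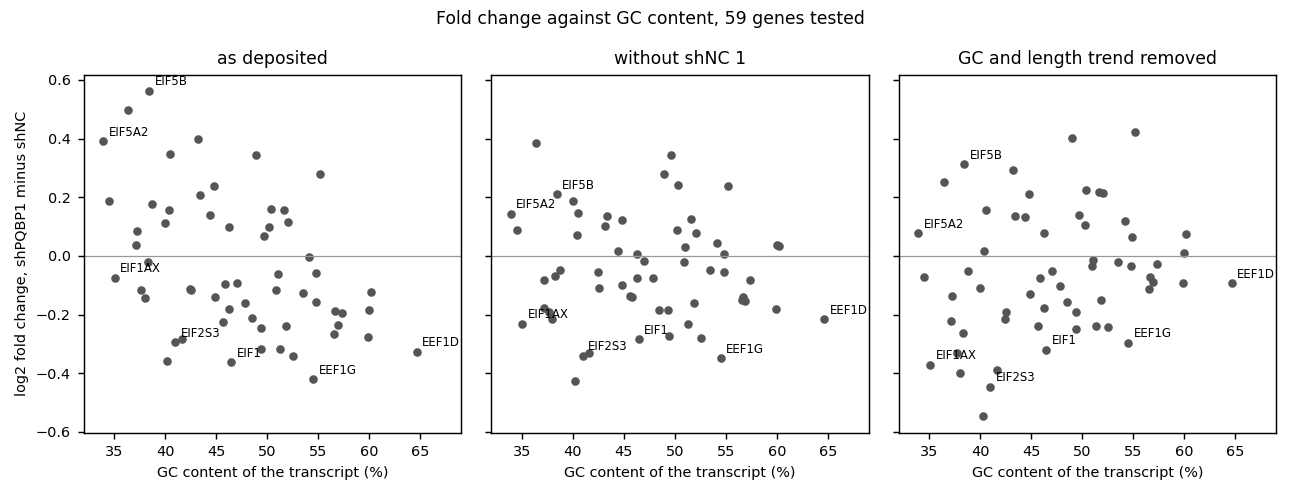
Log2 fold change of the 59 tested genes against the GC content of the transcript, with the values as deposited, without the first shNC replicate, and with the trend on GC content and length taken out. Spearman's rho is -0.42, -0.08 and 0.21 in the 3 panels, and EEF1G, EIF1 and EIF2S3 stay below 0 in each.

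With that correction, 6 genes had an adjusted p under 0.05 in limma, all lower with shPQBP1. This was 10.2% of the 59, against 8.24% of all genes tested, of which 3.28% were called lower and 4.96% higher. They were EEF1G (log2 fold change -0.30, adjusted p = 0.0165), EIF1 (-0.32, 0.0213), EIF3I (-0.24, 0.0245), EIF4A3 (-0.25, 0.0477), EIF2S3 (-0.45, 0.0161) and EIF1AX (-0.37, 0.0255). Over the other settings the adjusted p ran up to 0.308 for EIF3I, 0.289 for EIF2S3 and 0.969 for EIF1AX. EIF1AX, the partner of eIF1 in scanning, had a value of only -0.08 before the correction, -0.23 without the first shNC replicate and 0.02 without the second. It was at 15.1, 21.4 and 20.5 FPKM in shNC and at 18.1, 17.0 and 18.4 FPKM in shPQBP1, and a pseudogene-named copy of equal mean level (18.4 FPKM) makes its count uncertain.

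Without the first shNC replicate, EEF1G (log2 fold change -0.35, adjusted p = 0.0422), EIF1 (-0.28, 0.0497) and EIF2S3 (-0.34, 0.0418) had an adjusted p under 0.05. These were 5.08% of the 59 genes, all lower with shPQBP1, against 4.07% of all genes tested, of which 1.49% were called lower and 2.58% higher. The range of the log2 fold changes then ran from -0.43 to 0.38, and at an unadjusted p under 0.05 there were 14 genes lower (11.4% of all genes tested) and 2 higher (13.4%). EIF2S3 is the one of these genes in which the first shNC replicate was the lowest of its group, so its difference was larger without that sample, whereas those of EEF1G and EIF1 were smaller.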

How the data were processed

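The authors deposited 1 gene table for the 6 samples. Its FPKM values, deposited with 2 decimals for each gene in each sample, were made by the authors with HISAT2 (version 2.2.0), SAMtools (version 1.9) and StringTie (version 1.3.0) on hg38, per the labels. The annotation release is not given in the sources used here. The authors' deposited fold change, log2 fold change, p-value and q-value columns hold their own edgeR comparison and were not used. Because FPKM are not counts, the groups were compared on log2(FPKM + 0.1) in limma 3.58.1 under R 4.3.3, using lmFit, then eBayes with its trend option. Genes averaging at least 1 FPKM entered (11413 of 32679), tests were two-sided, and p-values were adjusted by Benjamini-Hochberg across all of them. A fold change on this scale understates the change of low genes, and the FPKM give no depth, so no counting error is given. Paralogue ratios were compared with exact permutation tests.

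GC content, length and gene positions came from GENCODE release 44 (hg38), with transcripts for 11385 tested genes and all 59 members, and transcript starts from RefSeq (GRCh38.p14). The trend was removed per sample with natural splines of 5 degrees of freedom. The test was tested on simulated data of 11256 genes, where 68.7% of genes changed by 1 on the log2 scale and 93% of those changed by 2 were called. Of the unchanged genes, 7 were called. Changes as small as those of the members were not simulated, so the share of them that would be called is unknown. Alternatives were other scalings, filters, pseudocounts, no trend, a replicate block and each sample left out.

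Values in every sample are given by rule for PQBP1, genes passing the adjusted test or the fold change threshold, the 6 lowest and 6 highest log2 fold changes, the highest gene of each role, paralogue pairs and textbook members. EIF2S3, EIF3I, EIF1AX, EIF4B and EEF2KMT were added after their values were seen, as were the genes named only in counts. The members, lists and tests were chosen with earlier results of these data known.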

Additional observations from a re-analysis of the deposited data

How the results depend on the processing

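Among 602 values for 39 genes given with values (29 by the naming rule and 10 others), 577 kept their direction and side of the adjusted threshold, 12 passed it (EEF1G, EIF1, EIF4A3, EIF2S3, EIF3I and EIF1AX) and 13 changed sign. The number of members at an adjusted p under 0.05, 0 as reported, was 2 with quantile normalization (EEF1G and EIF1), 1 with a mean FPKM of at least 10 (EEF1G), 6 with the GC content and length correction and 0 to 3 with 1 sample left out, 3 being without the first shNC replicate. Members higher at an unadjusted p under 0.05, 3 as reported, were 1 with median-of-ratios scaling, 0 with quantile normalization, 1 without the mean-variance trend and 0 to 3 with 1 sample left out. Members lower, 12 as reported, were 17 with the GC correction and 6 to 14 with 1 sample left out, 6 without the first shPQBP1 replicate and 7 without the third. The median log2 fold change was -0.0709 with the GC correction, with or without the block, and -0.141 to -0.0558 with 1 sample left out. Over all genes, 332 were called as reported, 0 with the replicate block, 21 with the block and the GC correction, 190 with every gene above 0, 211 with a mean FPKM of at least 10, 938 with the GC correction and 30 to 464 with 1 sample left out. At an unadjusted p under 0.05, 2689 of all genes tested were called as reported, 3145 of 11385 with the GC correction and 1780 to 2940 with 1 sample left out.

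Same-numbered samples had correlated deviations of -0.19, -0.14 and -0.01, so the numbers were not taken as pairs. With the replicate block 6 members were lower and 0 higher at an unadjusted p under 0.05, and with the block and the GC correction 12 were lower and 1 higher. Over all genes, 1840 of 11413 and 2417 of 11385 had such a p in these settings. No sample of either group correlated best with its own number. PQBP1 had an adjusted p of 0.0686 with the block.

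The log2 ratio of EIF4E to EIF4E2 differed by -0.29 with the GC correction, that of EIF1 to EIF1B by -0.13 and that of EIF5A to EIF5A2 by -0.19. The ratio of EIF4A1 to EIF4A2, -0.09 as reported, ran from -0.37 to 0.28 with 1 sample left out. The ratio of EEF1A1 to EEF1A2 differed by -0.54 as reported (exact permutation p = 0.1), by -0.32 with quantile normalization, by -0.17 with a pseudocount of 1 and by -1.61 with one of 0.01, so it rests on the pseudocount added to the near-zero values of EEF1A2, and it has no GC-corrected value because EEF1A2 was not tested. The sign changed for EEF1A1 with quantile normalization (0.0612), and with the GC correction, alone or with the block, for EIF3CL (0.0640) and EIF4E (-0.0709). With 1 sample left out it changed for EIF3CL (-0.109 to 0.0060, above 0 without the first shNC replicate), EIF4G3 (-0.0753 to 0.210, below 0 without the first shNC replicate), EIF1AX (-0.232 to 0.0191, above 0 without the second shNC replicate), EIF2S1 (-0.0686 to 0.0057, above 0 without the second or the third shNC replicate), EIF4A1 (-0.184 to 0.346, below 0 without the third shNC or the second shPQBP1 replicate) and EIF5 (-0.0079 to 0.549, below 0 without the first shPQBP1 replicate). The causes were not tested. The unknown depth and 3 samples a group limit all of these values.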
